A study of Bombyx mori with 4 samples.

Results

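In the silkworm Bombyx mori, 2580 stretches of the genome were listed as open chromatin in both brain libraries and in 1 fat body library, but not in the other fat body library. They were chosen by the measured peak lists themselves: the peaks of 4 libraries were merged wherever they overlapped by at least 1 bp, and a merged region was kept if peaks of brain 1, brain 2 and fat body 1 lay in it and no peak of fat body 2 did. The 2580 regions were 1.98% of all 130309 merged regions. Their presence in 3 lists and absence from the fourth is therefore how they were picked and not a finding. Strength, width, summit position and genome position come from the same lists and are given as descriptions, with no test.

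All libraries came from larvae of the P50 strain, labelled wild type and L5D3 for the stage, with no treatment named. Brain and fat body were each profiled by ATAC-seq in 2 libraries from 50000 nuclei, numbered 1 and 2. Nothing in the labels tells whether library 1 and library 2 of a tissue are different animals, dissections or repeats of one preparation. The tissue labels could not be checked against marker genes, because the peak lists name no genes.

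ATAC-seq uses a transposase that cuts and tags DNA where nucleosomes and other proteins leave it exposed, so read pile-ups mark promoters, enhancers and other accessible sites. Regions open in unrelated tissues often include promoters of genes that most cells use, while enhancers tend to be open in fewer cell types. The brain holds neurons, glia and the neurosecretory cells that set the hormones of moulting and metamorphosis, and the fat body is the insect organ of nutrient storage, intermediary metabolism and haemolymph protein secretion. Which genes lie at the regions was not analysed here, since no gene models of the genome build of the lists were at hand.

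The 4 lists differed in length and in how they were made. Brain 1 had 36420 peaks, brain 2 had 11572, fat body 1 had 107057 and fat body 2 had 14752. The lists paired by number more than by tissue: 14809 merged regions had peaks of brain 1 and fat body 1 only and 4677 had peaks of brain 2 and fat body 2 only, against 654 with peaks of the 2 brain libraries only and 2013 with peaks of the 2 fat body libraries only. The lowest local background at a summit, a floor that scales with reads and assumed fragment length, was 1.38 reads in brain 1 and in fat body 1, 0.558 in brain 2 and 0.534 in fat body 2. Only the peak names of fat body 2 mention a mapping quality of 20, removal of duplicates and a cut on q. The names of brain 2 and fat body 1 give a cut of 1e-05 on p, and those of brain 1 give 1e-05 without saying on what. In brain 1 the stage in the peak names is 5L-4D, which differs from the L5D3 of its label. Library number, list length and processing cannot be told apart from what fat body 2 lacks.

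The regions made up much of what brain 2 held outside fat body 2. Of the 11517 merged regions with a brain 2 peak, 33.1% had no fat body 2 peak, and the 2580 regions were 67.6% of those 3816 (exact 95% interval 66.1 to 69.1%). They were 22.4% of all brain 2 regions. Of the 4492 regions in both brain lists, 72% had no fat body 2 peak, and 57.4% were among the 2580. Only 654 regions of both brain lists lacked both fat body libraries. Intervals here and below are exact (Clopper-Pearson for shares, Poisson for densities) and cover only the counting of regions, and regions are no replicates of a tissue.

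Each library can be asked how many regions of the other 3 it lacks. Fat body 2 lacked 2580 of 3655, or 70.6% (69.1 to 72.1%). Brain 1 lacked 62.2% of 2841 regions, brain 2 lacked 40.5% of 1807 and fat body 1 lacked 14.5% of 1258. With the 11572 best peaks of each list by −log10 q, the adjusted significance that the authors' peak caller gave, fat body 2 lacked 65.2% of 2026 such regions (63.1 to 67.3%). Brain 2 then lacked 29.5%, brain 1 11.9% and fat body 1 11.2%. Equal length shortens the list of brain 1 from 36420 peaks and that of fat body 2 only from 14752, so the moves of these shares are not on a par. The comparison of list lengths was planned for the number of regions, and its use on these shares was added after the lists were seen.

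**Figure D1:**
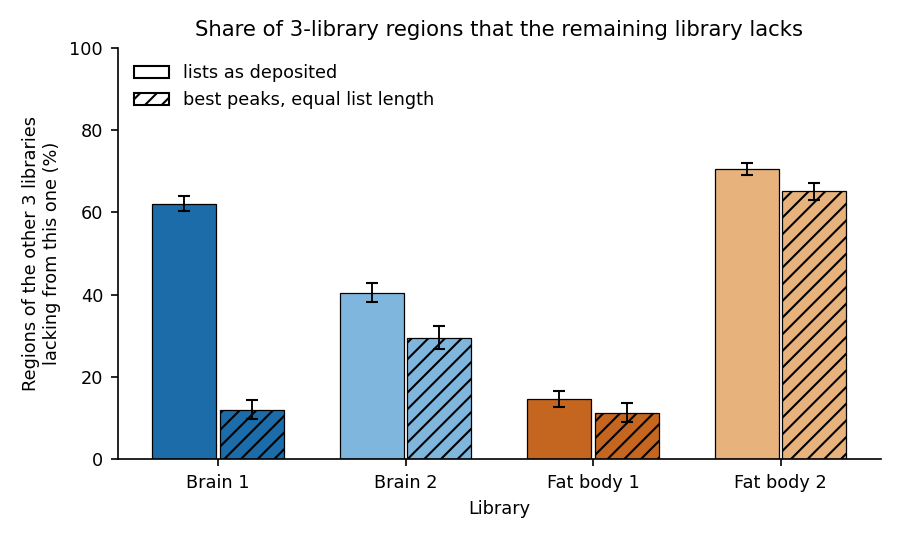
Share of the merged regions of the other 3 libraries (y axis, %) that each library (x axis) lacks, with the lists as deposited (plain bars) and with the 11572 best peaks of each list (hatched bars); error bars are exact 95% intervals over regions. Fat body 2 stands at 70.6% and 65.2%, while brain 1 stands at 62.2% and 11.9%.

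Within their own lists the regions ranked high in brain 1 and fat body 1 and near the middle in brain 2. Strength was ranked within each list as a percentile, the share of the list's peaks with a lower −log10 q than the strongest peak of the region, since values of different lists are not on 1 scale. A percentile also depends on list length, and brain 2 had the shortest list, so percentiles are not compared between lists. In brain 1 the median percentile was 92.2 (quartiles 84.9 and 96.3). In brain 2 it was 42.7 (23.0 and 65.7), and in fat body 1 it was 89.3 (75.3 and 94.8). The 1075 regions of all 4 libraries had higher medians in each list, at 95.5, 69.6 and 97.8. The 14809 regions of brain 1 and fat body 1 only had lower ones, at 48.8 in brain 1 and 71.3 in fat body 1. The 654 brain-only regions stood at 86.2 in brain 1 and 36.1 in brain 2. Other classes of 3 libraries fell on both sides of these values. Regions of all but brain 1 had a median of 57.1 in brain 2 and 43.4 in fat body 1, and regions of all but brain 2 had 63.9 in brain 1 and 98.0 in fat body 1.

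Fold enrichment, the authors' value for reads at the summit over local background, gave a related picture with 1 exception. In brain 1 the median fold was 11.7, in brain 2 it was 4.69, and in fat body 1 it was 6.96. In the regions of all 4 libraries it was 11.0, 5.73 and 13.2. In brain 1 the regions without fat body 2 thus had about the same fold as those of all 4 libraries, whereas in fat body 1 their fold was lower. Ranked by fold in place of −log10 q, the median percentiles were 89.9, 33.9 and 87.9 in the same order.

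The number of reads behind these peaks was recovered from fold and −log10 p wherever −log10 p was under 250. The median pile-up at the summit was 193 reads in brain 1 for 2266 of the 2580 regions, the strongest ones not being covered. It was 29 reads in brain 2 for all 2580 regions and 61 reads in fat body 1 for 2532. The medians over all recovered peaks of those lists were 57, 27 and 35 reads. In brain 2 the regions thus had pile-ups close to those of the average peak of that list. The local background at their summits, divided by the floor of the list, had a median of 11.1 for brain 1, 10.0 for brain 2 and 6.30 for fat body 1, against 6.99, 7.32 and 6.04 over all recovered peaks. The median local background of the regions was thus above that of all recovered peaks, mostly in the brain libraries. In the regions of all 4 libraries it was recovered for 679, 1075 and 765 of 1075 regions, the strongest of brain 1 and fat body 1 not being covered. Over those recovered regions it was 10.0, 10.9 and 7.25, so a raised background was not particular to the 2580 regions. The part of background in their listing was not tested.

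Beside the lowest values of fat body 2, few regions were lower in brain 1 and fat body 1, and more in brain 2. The lowest −log10 q listed for fat body 2 was 5.04. In brain 1, 5 of the 2580 regions had a −log10 q under that value, in fat body 1 there were 6, and in brain 2 there were 190 (7.36%, 6.39 to 8.44%). With the lowest −log10 p of fat body 2, 6.69, the counts were 5, 9 and 123. In brain 1, brain 2 and fat body 1 the lowest −log10 p listed was 5.01, 5.03 and 5.01, and the lowest −log10 q was 3.65, 3.18 and 3.69. Brain 1, like brain 2 and fat body 1, thus listed peaks that a cut of 1e-05 on q would leave out. The lowest pile-up listed was 7 reads in fat body 2 and 6 reads in brain 2. Values of different lists are not on 1 scale, so these counts do not tell which regions would pass in fat body 2. The values of the regions in fat body 2 itself are not in its list.

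Each list was cut by −log10 q into 10 parts of equal size, and the regions fell unevenly over them. Of the strongest 10% of brain 1 peaks, 42.0% lay in the regions, and of the weakest 10% only 0.522%. In fat body 1 the shares were 12.0% and 0.738%. In brain 2 the order was the other way at the top: 9.59% of the strongest 10% of peaks lay in the regions, against 28.3% in part 4 and 22.5% in the weakest part. The strongest brain 2 peaks were more often in regions of all 4 libraries, with 17.2% of the strongest part and 3.54% of the weakest.

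**Figure D2:**
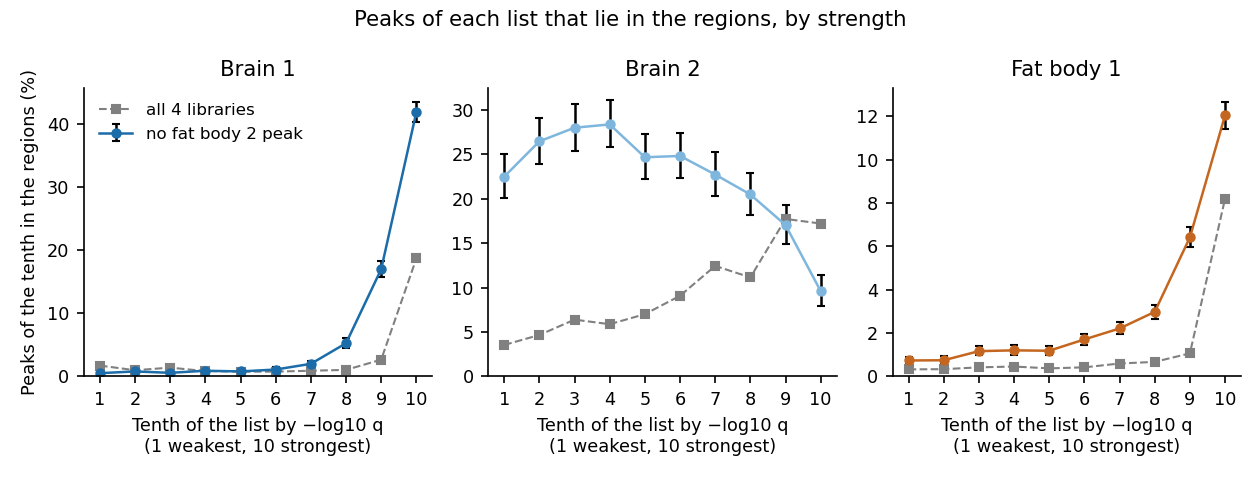
Share of the peaks in each of 10 equal parts of a list (y axis, %, with its own scale in each panel) that lie in the regions without fat body 2 (circles, with exact 95% intervals) and in the regions of all 4 libraries (grey squares), for brain 1, brain 2 and fat body 1, by −log10 q from the weakest part (1) to the strongest (10). The share climbs to 42.0% in brain 1 and 12.0% in fat body 1, and drops to 9.59% in brain 2.

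Within the 2580 regions, strength in one list went only partly with strength in another. Spearman's rho of the percentiles across the regions was 0.61 between the brain libraries, 0.43 between brain 1 and fat body 1 and 0.17 between brain 2 and fat body 1. In the 1075 regions of all 4 libraries the same values were 0.48, 0.75 and 0.21. These are correlations across regions that share libraries, given as descriptions. At or above the median of its list in all 3 libraries were 997 regions (38.6%), and 25 (0.969%) were below it in all 3. A further 1214 regions (47.1%) were above the median in brain 1 and fat body 1 but below it in brain 2. At or above the 90th percentile stood 1528 regions in brain 1, 1224 in fat body 1 and 111 in brain 2, and 61 stood there in all 3.

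Absence from fat body 2 was least frequent among the strongest regions. The 3655 regions of brain 1, brain 2 and fat body 1 were ranked in each list and cut into 4 groups of equal size. By brain 2 strength, 85.5% of the weakest group, then 80.7%, 69.1% and 46.9% of the strongest group had no fat body 2 peak. By fat body 1 strength the shares were 78.1%, 88.3%, 80.9% and 35.1% (32.0 to 38.3%). By brain 1 strength they were 64.8%, 86.5%, 80.7% and 50.2%. The decline ran through all 4 groups in brain 2, while in brain 1 and fat body 1 the second group was the highest. Even so, 459 regions of the strongest brain 1 group and 321 of the strongest fat body 1 group had no fat body 2 peak.

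**Figure D3:**
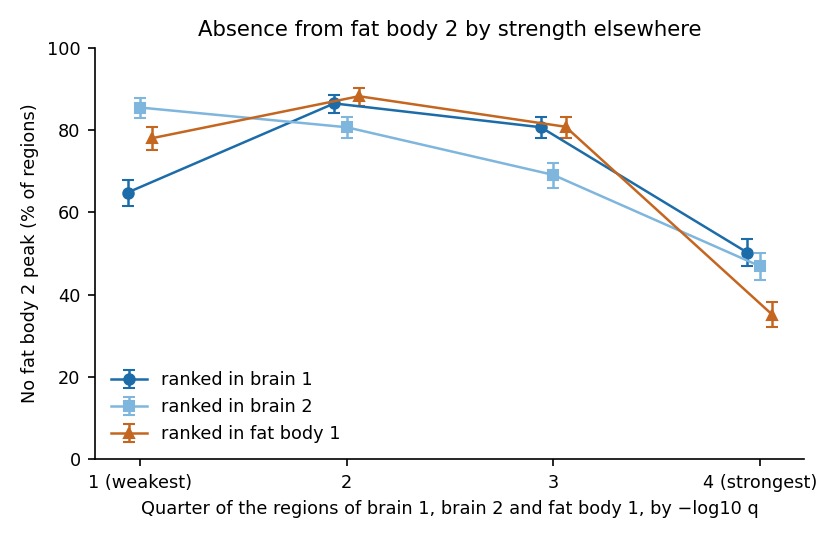
Share of the 3655 regions of brain 1, brain 2 and fat body 1 that have no fat body 2 peak (y axis, %), in 4 groups of equal size by −log10 q in brain 1 (circles), brain 2 (squares) or fat body 1 (triangles); error bars are exact 95% intervals over regions. The strongest group is the lowest in each ranking, at 50.2%, 46.9% and 35.1%.

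The region with the highest mean percentile over the 3 lists (99.6) lay on unplaced sequence 216, from 15469 to 16125. Its fold was 43.3 in brain 1 and 69.1 in fat body 1, each the highest of its whole list. In brain 2 its fold was 29.7, and 25 peaks of that list were higher. The 3 summits stood at 15783, 15779 and 15778. Fat body 2 had no peak at all on that sequence, and whether reads of fat body 2 could be placed there was not tested.

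The next strongest regions lay on long sequences, where fat body 2 did have peaks. On sequence 20, from 6856555 to 6857347, the fold was 10.4 for brain 1, 7.10 for brain 2 and 11.1 for fat body 1, with the nearest fat body 2 peak 4166 bp away. On sequence 25, from 9684781 to 9685753, it was 17.1, 13.0 and 15.8, and a fat body 2 peak lay 473 bp away. The brain 1 and fat body 1 summits of that region were at the same base, 9685355, and the brain 2 summit was 14 bp from it. On sequence 5, from 7624659 to 7625226, the fold was 19.8, 9.46 and 22.7. Brain 1 and fat body 1 again shared their summit, at 7624790. On sequence 12, from 11569058 to 11569725, all 3 summits lay within 3 bp, and the nearest fat body 2 peak was 32898 bp away. The 10 strongest regions had mean percentiles from 96.7 to 99.6 and fell on 9 different sequences.

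At the other end, the region with the lowest mean percentile (10.3) lay on sequence 27, from 9936524 to 9937006. Brain 1 had a fold of 2.55 there, brain 2 a fold of 3.44 and fat body 1 a fold of 3.77. The next, on sequence 4 from 3794183 to 3794570, had folds of 3.42, 5.01 and 2.84. Both were single peaks in each list. The median of the mean percentile over the 2580 regions was 72.3, and it was 83.9 in the regions of all 4 libraries.

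Brain 1 peaks set most of the width of the regions. The median width was 784 bp, with quartiles of 603 and 1004 bp and a range from 263 to 3336 bp. Regions of all 4 libraries had a median of 902 bp, brain-only regions one of 670 bp, and those found in brain 1 and fat body 1 only one of 491 bp. The other classes of 3 libraries had medians of 743 bp (all but brain 1), 742 bp (all but brain 2) and 923 bp (all but fat body 1), on either side of the 784 bp. Together the 2580 regions covered 2.17 Mb. In 1690 of them (65.5%) a single brain 1 peak reached from end to end. A merged region is at least as wide as its widest peak and grows with the number of lists that enter it, so widths of classes with different libraries are set side by side only.

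Peaks of the 3 lists differed in width within the same regions. The strongest brain 1 peak had a median width of 745 bp, the brain 2 peak 362 bp and the fat body 1 peak 229 bp. Over all peaks of the lists the medians were 425, 491 and 166 bp. The regions thus had wider peaks than the average of the list in brain 1 and fat body 1, but narrower ones in brain 2. All brain 1 peaks of a region together covered a median of 100.0% of it, those of brain 2 52.1% and those of fat body 1 36.9%. The stretch that lay in peaks of all 3 lists at once had a median of 195 bp, or 25.1% of the region. In 125 regions (4.84%) no base was shared by all 3 lists, and the peaks were joined in a chain.

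Almost all regions held 1 peak of each brain list, but fat body 1 often split them. A single brain 1 peak lay in 2576 regions and a single brain 2 peak in 2562. Fat body 1 had 1 peak in 1963 regions, 2 in 563, 3 in 49 and 4 in 5. The median region width in those groups was 725, 1001, 1426 and 1747 bp. The widest region, on unplaced sequence 96 from 16926 to 20261, held 1 peak of each list. The second widest, on sequence 5 from 8980918 to 8983769, had 2 peaks of brain 2 and 2 of fat body 1 beside a single brain 1 peak.

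Summits, the bases with the highest pile-up of a peak, lay closest together, by the median and at limits up to 100 bp, between brain 1 and fat body 1, which are libraries of different tissues. At wider limits the 2 brain libraries were closest. The median distance was 36 bp (quartiles 4 and 114), and 73.8% of the regions (72.1 to 75.5%) had these summits within 100 bp. Within 50 bp were 60.0% and within 200 bp 80.7%. In 328 regions (12.7%) brain 1 and fat body 1 had their summit at the same base. Between brain 2 and fat body 1 the median was 91 bp. Their summits lay within 50 bp in 30.5% of the regions, within 100 bp in 54.0% and within 200 bp in 77.1%, and 1.67% shared a base. Between the 2 brain libraries the median was 66 bp, 66.4% of the regions had both summits within 100 bp, and 3.95% shared a base. Within 200 bp the brain pair stood at 87.1%, above both other pairs. Within 500 bp it stood at 97.2%, against 93.7% for brain 1 and fat body 1 and 93.9% for brain 2 and fat body 1.

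Which pair was closest thus depended on the limit. The summit of brain 1 was nearer to that of fat body 1 than to that of brain 2 in 1488 regions (57.7%, 55.7 to 59.6%), nearer to that of brain 2 in 1042 (40.4%), and equally far in 50. The distances between brain 1 and fat body 1 had a second, low rise: 849 regions fell under 10 bp, 158 from 10 to 19 bp, 191 and 183 in the bins that start at 30 and 40 bp, and 115 in the next. Under 10 bp lay 452 regions for the pair of brain libraries and 274 for brain 2 and fat body 1, as the plot of summit distances shows. The rise was not particular to brain 1 and fat body 1. From 10 to 19 bp the brain pair had 111 regions, against 180 and 165 in the bins that start at 30 and 40 bp. For brain 2 and fat body 1 these counts were 85, 150 and 155. In the regions of all 4 libraries brain 1 and fat body 1 had 59, 75 and 74. Brain 1 and fat body 1 also had the larger pile-ups, and the part of pile-up size in how exactly a summit is placed was not tested.

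**Figure D4:**
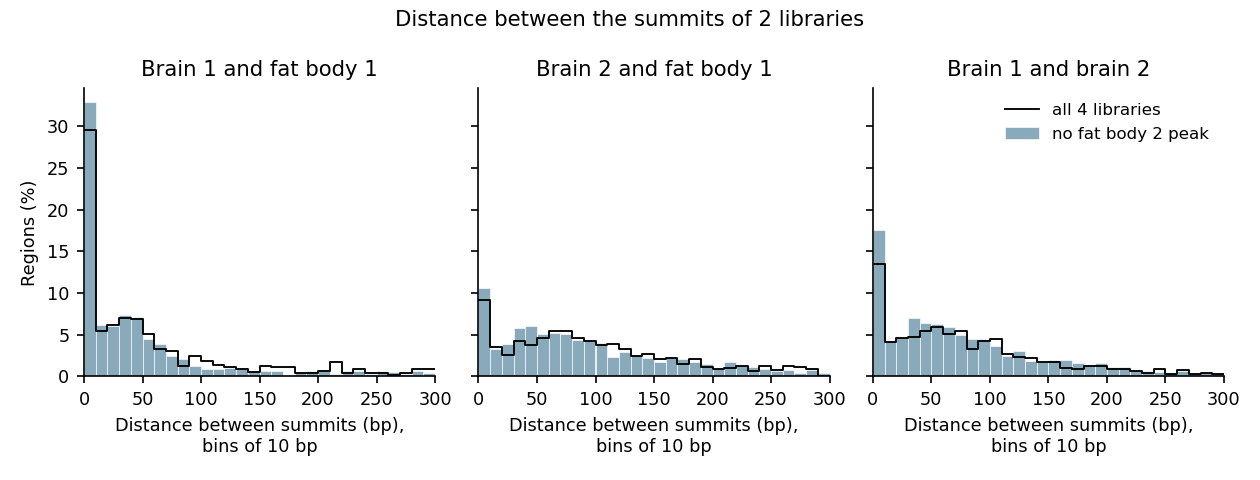
Distance between the summits of 2 libraries (x axis, bp, bins of 10 bp, cut at 300 bp) against the share of regions (y axis, %), for the 2580 regions without fat body 2 (bars) and the 1075 regions of all 4 libraries (line). The first bin of brain 1 and fat body 1 holds 32.9% of the 2580 regions, against 10.6% for brain 2 and fat body 1 and 17.5% for the brain pair.

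The same order of medians held in the regions of all 4 libraries. There the medians were 42 bp for brain 1 and fat body 1, 82 bp for the brain pair and 104 bp for brain 2 and fat body 1, each a little above that of the 2580 regions. Regions of brain 1 and fat body 1 only had a median of 44 bp, with 66.4% within 100 bp and 7.25% at the same base. All 3 summits of a region fell within 100 bp in 1222 of the 2580 regions (47.4%) and within 50 bp in 574 (22.2%). In 233 regions (9.03%) they spread over more than 500 bp. The median spread was 107 bp, against 127 bp for the same 3 libraries in the regions of all 4.

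The summit distance of brain 1 and fat body 1 went with strength in fat body 1 and, less evenly, in brain 1. From the weakest to the strongest of 4 groups of 645 regions by fat body 1 rank, the median distance between brain 1 and fat body 1 was 85, 43, 24 and 13 bp. The share within 100 bp was 53.3%, 68.2%, 83.6% and 90.2%. By brain 1 rank the medians were 61, 34, 28 and 33 bp, while the share within 100 bp was 57.8%, 74.9%, 79.2% and 83.4%. By brain 2 rank the medians of this pair were 40, 35, 26 and 44 bp, with no steady fall. The brain pair did draw closer with brain 2 rank, with medians of 110, 64, 56 and 55 bp. Its share within 100 bp was 47.3%, 65.3%, 76.6% and 76.4%. For brain 2 and fat body 1 the medians by brain 2 rank were 123, 90, 74 and 91 bp. Between brain 2 and fat body 1 the median distance was 127 bp in the weakest and 67 bp in the strongest fat body 1 group, and 138, 90, 77 and 74 bp over the brain 1 groups. In the weakest fat body 1 group the brain pair was slightly closer than brain 1 and fat body 1, with a median of 81 bp and 59.8% within 100 bp.

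Single regions show both extremes. In 19 regions all 3 summits were at 1 base. Examples are sequence 9, from 10463796 to 10464671, with the summits at 10464064 and folds of 15.2, 6.50 and 9.16 in brain 1, brain 2 and fat body 1, and sequence 6, from 8846087 to 8846853, with the summits at 8846333 and folds of 13.6, 5.15 and 6.78. The widest spread, 2286 bp, was in the region on sequence 96, whose brain 1 summit stood at 17263 and whose brain 2 and fat body 1 summits stood at 19331 and 19549. On sequence 11, from 1581299 to 1583513, the brain summits at 1583145 and 1583242 lay 97 bp apart and the fat body 1 summit lay at 1581370. In that region no base was common to the 3 lists.

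The regions were spread over the whole genome. The 28 long sequences, from 8.36 to 21.5 Mb, held 2571 of the 2580 regions at 5.78 per Mb (5.56 to 6.01). The density per sequence ran from 3.87 per Mb on sequence 28 (2.78 to 5.26) to 7.22 per Mb on sequence 15 (6.05 to 8.56), with a median of 5.78. The intervals of 23 sequences held the overall density. Sequences 4 and 15 lay above it and sequences 6, 13 and 28 below, by intervals that are not adjusted for looking at 28 sequences. The highest density was 1.86 times the lowest, against 2.63 times for all brain 2 regions.

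Counted against brain 2 regions, the sequences differed more. The regions were a median of 23.1% of the brain 2 regions of a sequence, from 10.4% on sequence 28 to 31.9% on sequence 10. Sequences 2 and 26 were also low, at 12.3% and 13.7%. The number of regions went with the span of the sequence (Pearson's r = 0.85 and Spearman's rho = 0.81 over 28 sequences), while the number of brain 2 regions did so less (r = 0.44, rho = 0.38). These sequences share their libraries, and the values are descriptions. The share of the regions of the other 3 libraries that fat body 2 lacked varied less, from 60.7% on sequence 16 to 78.0% on sequence 1, and the intervals of 27 of the 28 sequences held the overall 70.6%.

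**Figure D5:**
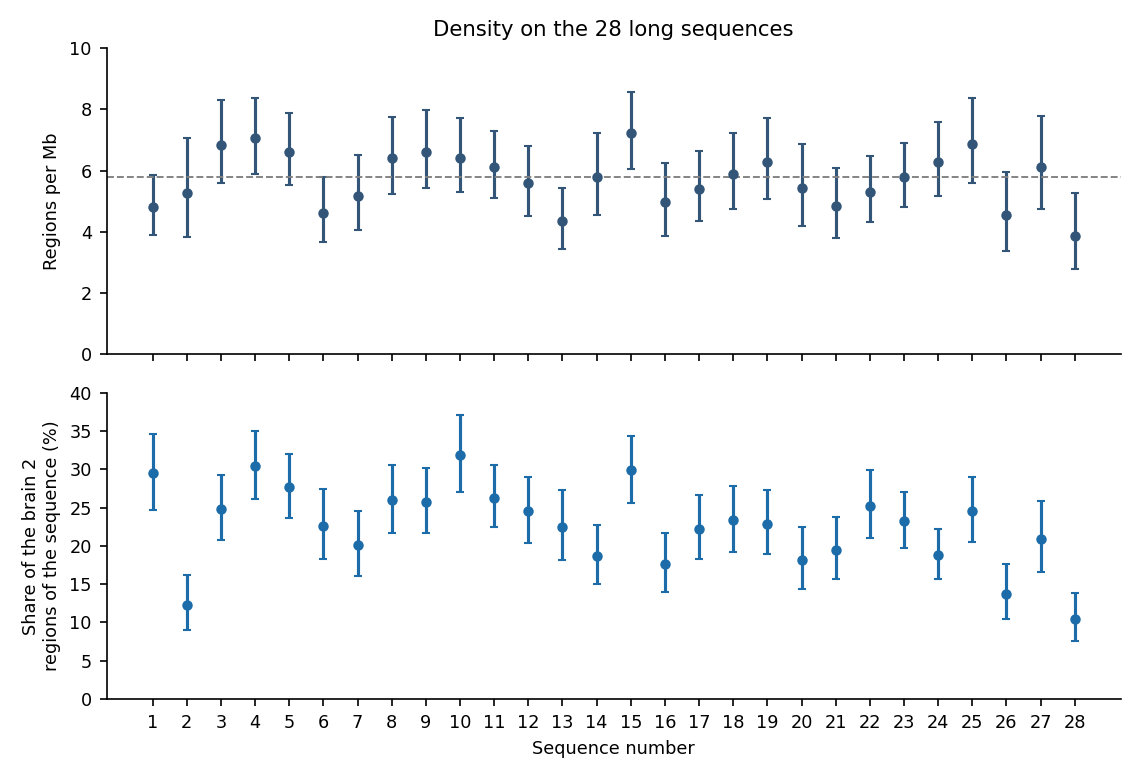
Regions per Mb on each of the 28 long sequences (upper panel, with exact Poisson 95% intervals and the overall 5.78 per Mb as a dashed line) and the same regions as a share of the brain 2 regions of the sequence (lower panel, %, with exact binomial 95% intervals). Densities lie between 3.87 and 7.22 per Mb, and the shares of sequences 2, 26 and 28 are the lowest.

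Unplaced sequences held 9 regions (0.349%) on 7 sequences, against 0.573% of all merged regions and 1.70% of brain 2 regions. Among the 9 were the strongest and the widest region. On the long sequences the gap between neighbouring regions had a median of 94775 bp and a range from 86 to 1719501 bp. Gaps of up to 10000 bp were 8.57% of all gaps. Of 458 windows of 1 Mb, 450 held at least 1 region. The fullest window, on sequence 11 from 11000001 to 12000000, held 20 of the regions, out of 26 regions of the other 3 libraries and 36 brain 2 regions. The next fullest, with 15 each, were on sequence 3 from 10000001 to 11000000 and on sequence 17 from 7000001 to 8000000.

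Along the long sequences the regions were somewhat more frequent in the middle. Between 40% and 70% of the span lay 35.0% of the regions (33.2 to 36.9%), 27.2% of brain 2 regions, 31.0% of brain 1 regions and 30.1% of fat body 1 regions. The regions of all 4 libraries stood at 32.2% (29.4 to 35.1%), so the interval of the 2580 regions overlapped theirs. These limits were chosen after the positions were seen. In the first and last 10% of the span lay 18.0% of the regions, against 19.9% of brain 2 regions.

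Fat body 2 peaks lay near few of the regions, and the rule itself leaves out every region that overlaps one. The nearest lay a median of 12595.5 bp away, within 1 kb of 103 regions (4.00%) and within 10000 bp of 42.2%. For brain-only regions the median was 11127 bp, with 4.89% within 1 kb. For those found in brain 1 and fat body 1 only it was 11180.5 bp, with 5.95% within 1 kb. Just inside the rule were regions on sequences 7, 10 and 6, at 95, 95 and 97 bp from a fat body 2 peak. Just outside it were 3 regions of all 4 libraries on sequences 17, 23 and 9, where the fat body 2 peak overlapped the peaks of the other lists by 64, 70 and 90 bp with folds of 6.17, 8.74 and 6.63. The median overlap in the regions of all 4 libraries was 338 bp. The region farthest from any fat body 2 peak was on sequence 10 from 17544721 to 17545588, at 412973 bp, and another on the same sequence from 17501553 to 17502250 was 369805 bp away. In brain 1, brain 2 and fat body 1 the first had folds of 8.78, 4.02 and 4.10, and the second 9.82, 4.12 and 4.43.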

How the data were processed

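Peak lists of 4 ATAC-seq libraries were used as deposited, 1 list per library. The submitters' processing notes name MACS2 2.1.0, deepTools 3.3.0, Picard, Bowtie2 and Trim Galore. Their settings, the genome build and the number of reads are not given in the sources here. In the deposited lists each peak has a score, a summit offset, a fold enrichment at the summit (a ratio) and the −log10 of its p and of its q. The deposited score was not used. The other values are as the authors' peak caller gave them. Peaks were ranked only within their own list, and values were also set beside the lowest ones of fat body 2. Coordinates are 1-based, on the sequences of the deposited lists.

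Peaks were merged at an overlap of 1 bp or more, and abutting peaks were not joined. Percentiles are mid-ranks of −log10 q, and the strongest peak stands for a list in a region. Sequence spans end at the last peak of the 4 lists. Pile-ups were recovered from fold and p within a relative tolerance of 2e-05, which gave a whole number for 100.0% of the searched peaks in each list. Read depth is not in the lists, so the precision of single peaks is unknown. With 2 libraries per tissue no test across libraries was run. Named regions are the 10 strongest and 3 weakest by mean percentile, the 3 widest, those with the closest and farthest summits, and those nearest to and farthest from a fat body 2 peak; the text gives a part of them. The regions, the comparisons and these rules were chosen with earlier results of these data known. Alternatives were other cuts, list lengths, overlaps, summit windows, absence within 1 kb, a common base, sequences and libraries. The code, in Python 3.11.15 with numpy 2.4.6, pandas 2.3.3 and scipy 1.17.1, was tested on simulated peaks.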

Additional observations from a re-analysis of the deposited data

How the results depend on the processing

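Of 98 alternative values of 11 results, 63 stayed and 35 moved. A value stayed if it fell within the interval of the reported value, or within 1.5 times for counts and densities. Some of these outcomes were set by construction. Keeping only the long sequences left 2571 of the 2580 regions and could not change the density per sequence. Agreement within 50 or 200 bp was held against the interval at 100 bp. The counts of values that stayed and moved are thus no measure of robustness. The results have no direction that could reverse. With the 11572 best peaks of each list the number of regions was 1321 and their median density 2.93 per Mb, by construction, since fewer peaks enter. The median percentiles, still ranks in the full deposited lists, were then 94.8 for brain 1, 50.7 for brain 2 and 94.8 for fat body 1. Those of brain 1 and fat body 1 are high by construction, since only the top of these lists enters. The summit distances were 20 bp (brain 1 and fat body 1) and 73 bp (brain 2 and fat body 1), with 86.8% and 62.4% within 100 bp. Fat body 2 lacked 65.2%. At a −log10 q of 5 or more the median percentiles, again ranks in the full lists, were 92.7 for brain 1 and 46.0 for brain 2. Ranked by fold they were 89.9, 33.9 and 87.9. With windows around summits they were 93.0, 46.6 and 90.1, the distances 25 and 70 bp, with 87.3% and 67.8% within 100 bp, and fat body 2 lacked 73.5%; far summits cannot share such a window, and no width is given for it. With the nearest pair of summits the distances were 32 and 82 bp, with 79.0% and 58.4% within 100 bp. With a base common to the 3 lists 76.5% and 56.5% were within 100 bp. With an overlap of at least 50% of the shorter peak the share for brain 1 and fat body 1 was 75.8%, and fat body 2 lacked 72.2%. Agreement within 50 bp was 60.0% and 30.5%, and within 200 bp 80.7% and 77.1%. Except where the construction shows it, the cause was not tested. Density by other denominators has other units and stands in the text above, as a share of brain 2 regions.

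Leaving out a library changes the rule itself. The number of regions ran from 2764 to 17389, the latter without brain 2, and the median density from 6.19 to 39.2 per Mb. The median width ran from 528 to 817 bp. The median percentile ran from 56.8 to 92.9 (brain 1), from 40.1 to 51.1 (brain 2) and from 75.0 to 91.5 (fat body 1), with the lowest brain 1 and fat body 1 values without brain 2. The summit distance of brain 1 and fat body 1 ran from 38 to 42 bp, with 67.5 to 72.9% within 100 bp, and that of brain 2 and fat body 1 from 91.5 to 94 bp, with 52.3 to 53.6%. No paired analysis was possible because each result describes regions over the lists and comes from no test. The lists hold no read depth, so a region missing from a list cannot be told from one under its cut.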
